A study of Mus musculus with 7 samples.

Results

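Translation initiation factors were examined in mouse bone marrow hematopoietic stem cells (HSCs) with and without Fth1, the gene of the ferritin heavy chain. The members are the protein-coding genes of the deposited table whose symbol starts with Eif and a digit, 55 of 55855 rows. RNA of HSCs from mice aged 2 months was sequenced in 7 libraries, 3 from mice with floxed, undeleted Fth1 (Fth1fl/fl, which the series text calls WT; control below) and 4 from mice with deleted Fth1 (Fth1△/△; Fth1-deleted below). The series text places the deletion in the hematopoietic system; the Cre line, the markers of the sort and the sex of the mice are not given in the sources used here, and no label says that each library is a separate mouse. The p-values below therefore measure spread between libraries, part of which may be technical. Each group held libraries with and without Y-linked RNA (below), so not all libraries of a group came from the same mouse.

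Initiation factors bring the small ribosomal subunit, the initiator tRNA and the mRNA together at the start codon. eIF2 carries the initiator tRNA with GTP, eIF2B recharges eIF2, and 4 kinases (the Eif2ak genes) slow eIF2B by phosphorylating eIF2. One of these kinases is controlled by heme, which ties initiation to iron in red cell precursors. eIF3 is the large scaffold on the small subunit, and eIF4 proteins bind the mRNA cap (eIF4E), bridge it to the ribosome (eIF4G) and unwind the leader (eIF4A). HSCs are known for a low rate of protein synthesis compared with their progeny.

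Values are FPKM, read counts scaled by gene length and by the counted reads of the library. The length is the mean over the annotated transcripts of a gene, short ones included. Rankings of different genes and shares of paralogs therefore depend on that annotation as well as on RNA level. The read depth recovered from the values was 12058700 to 15453585 counted reads per library. Fth1 itself was at 552, 659 and 638 FPKM in control and at 202, 333, 358 and 114 FPKM in the Fth1-deleted libraries, so every Fth1-deleted library was below every control library (limma adjusted p = 0.193). All 12 stem cell markers examined had enough RNA to be tested, 10 of them had a lower mean log2 level in Fth1-deleted, 1 passed the threshold, and their summed level was 953 to 1609 FPKM in control and 665 to 916 FPKM in Fth1-deleted. Cell cycle and other lineages also differed in level: 16 S phase genes summed to 1623 to 2339 and 2550 to 2772 FPKM, 4 multipotent progenitor genes to 70.8 to 114 and 136 to 258, 6 macrophage genes to 16.9 to 31.1 and 35.7 to 108, and 6 mast cell and basophil genes to 0 to 12.9 and 16.04 to 44.4, with Mcpt8 and Prss34 at 0 in all libraries. The sums of 16 G2 and M phase (552 to 1190 and 1041 to 1221), 9 neutrophil (156 to 359.9 and 186 to 564), 8 B cell (12.1 to 26.2 and 24.2 to 87.8), 7 T and NK cell (22.4 to 109.8 and 84.4 to 143), 8 erythroid (54.3 to 331 and 112 to 448) and 5 megakaryocyte genes (531 to 783 and 782 to 932) overlapped, with Cd3e and Gp1bb at 0. Some of these sums rest mainly on a single gene. Cpa3 was at 6.55, 0 and 0 FPKM in control and at 16.04 to 35.7 FPKM in Fth1-deleted. The groups of the mast cell and basophil genes Ms4a2, Fcer1a and Hdc overlapped. Nkg7 led the T and NK cell sum (22.2 to 107 and 75.6 to 140 FPKM). Prtn3 led the neutrophil sum (136 to 315 and 132 to 287 FPKM). The groups of Mpo did not overlap (0.255 to 3.63 and 15.4 to 135 FPKM). In the B cell list Vpreb1 was at 0 FPKM in every control library and at 4.06 to 31.8 FPKM in Fth1-deleted. For the other neutrophil and B cell genes the groups overlapped. Cd34 led the multipotent progenitor sum (56.8 to 75.3 and 90.98 to 178 FPKM). Ribosomal RNA genes took 0.0366%, 1.05% and 0.0145% of summed FPKM in control and 1.19% to 1.36% in Fth1-deleted. The part of these differences in the results below was not tested, and in bulk RNA fewer cells of a type cannot be told apart from less RNA per cell.

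No initiation factor gene was called between the groups, and most differences were small. Of the 55 genes, 53 had a mean of at least 1 FPKM and were tested, and 0 passed the threshold (limma over 13948 genes, adjusted p under 0.05, where 8 genes or 0.0574% passed); limma-voom on the recovered reads also called 0 of them. A log2 difference below is the Fth1-deleted mean less the control mean of log2(FPKM + 1), and the members' median was 0.06, beside -0.02 over all genes tested and 0.05 over genes between the members' quartiles of level. Of the 53, 31 were positive (58.5%) and 22 negative; 48.7% of all genes and 55.2% of genes of similar level were positive. This sign depends on the scaling, since values rescaled to TPM gave a member median of -0.02, beside -0.09 over all genes tested. At an unadjusted p under 0.05 there were 5 members, or 9.43% of the 53. The share was 9.83% over all genes and 12.8% over genes of similar level. Of the 5 members, 2 were higher (4.9% over all genes) and 3 lower (4.93% over all genes), and limma-voom gave 6. Among the 3237 genes of similar level 264 were higher and 151 lower at an unadjusted p under 0.05. The smallest adjusted p of a member was 0.392.

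How small the differences were can be read from the intervals. For 40 of the 53 genes (75.5%) the 95% interval of the log2 difference lay between -1 and 1, so that a doubling or a halving on this scale falls outside it. This held for 31.8% of all genes tested, and for 74.6% of the 3237 genes between the members' quartiles of level (42.03 to 215 FPKM), which are measured about as precisely. The 13 genes with wider intervals include 5 of the 7 whose groups did not overlap (below), and the weakly expressed Eif3j2 and Eif5a2 and the Y-linked Eif2s3y.

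**Figure D1:**
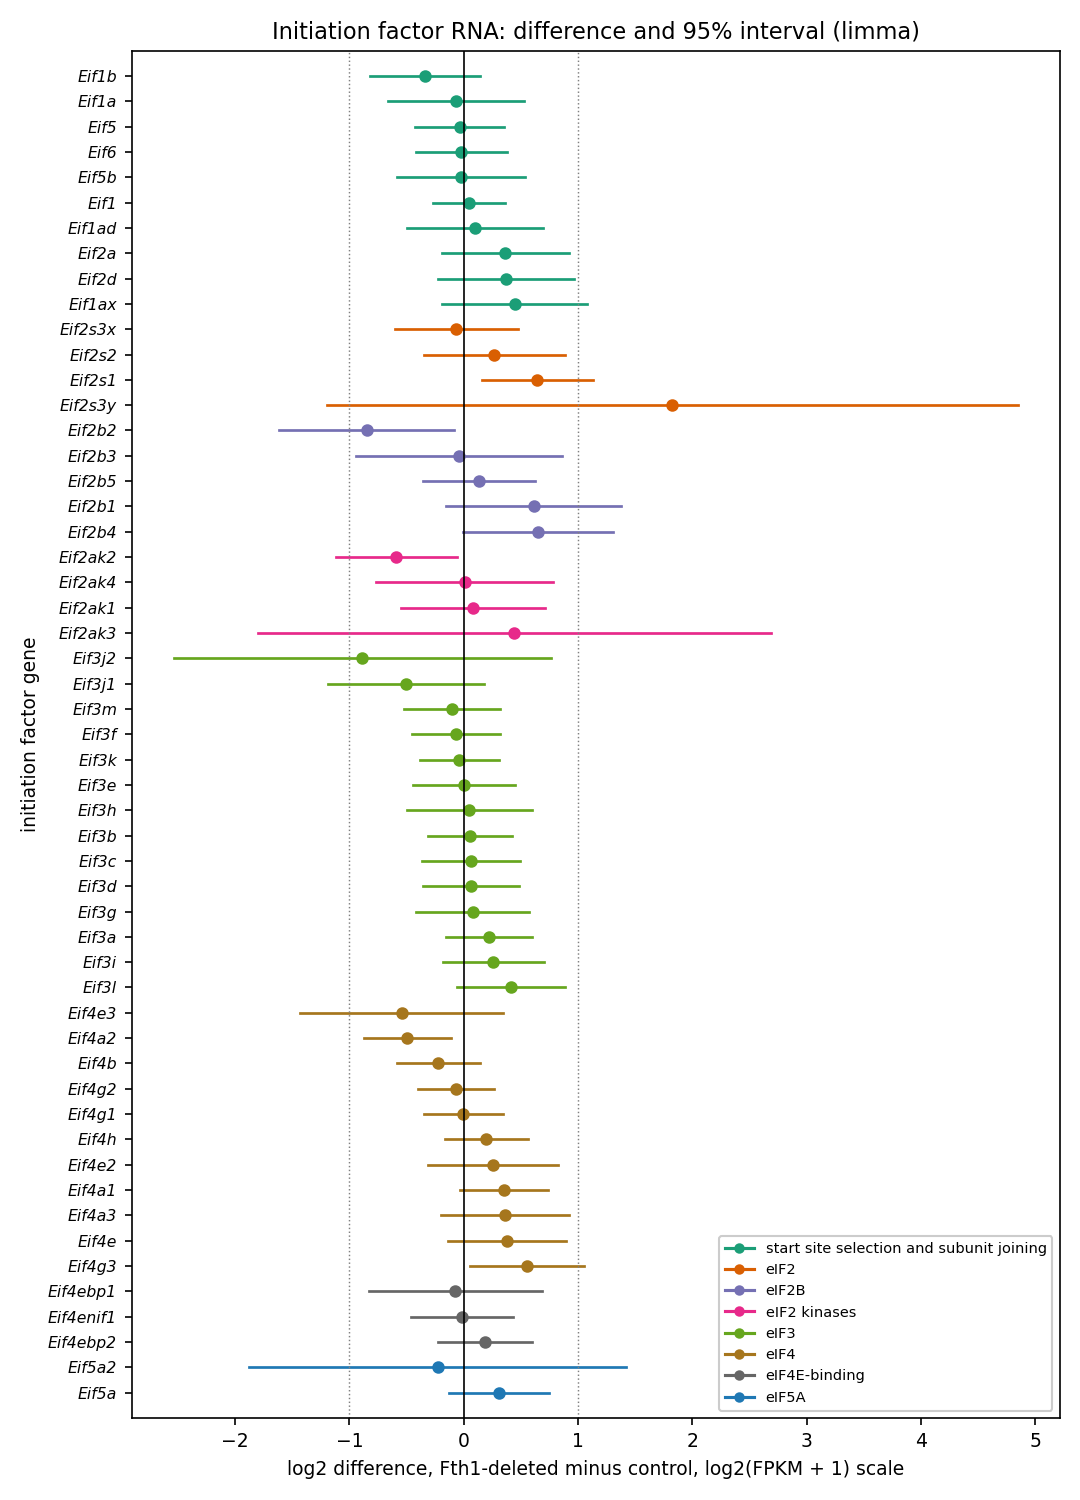
Log2 difference of each of the 53 tested initiation factor genes (points) with its 95% interval (lines), in colours by role, on the log2(FPKM + 1) scale; the dotted lines mark -1 and 1. Most points lie within 0.5 of 0 (43 of 53), and the widest interval belongs to Eif2s3y.

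The members were abundant. Their median level was 89.8 FPKM against 17.3 FPKM over all genes tested, and the median member stood at the 88.6th percentile of tested genes. Eif5a was the most abundant at a mean of 1246 FPKM over the 7 libraries, followed by Eif4g2 (772), Eif4a1 (730), Eif1 (623) and Eif4b (552). Replicates were also close: the median coefficient of variation of the members was 19.4% in control and 16.8% in Fth1-deleted, against 38.1% and 32.8% over all genes tested and 22.6% and 19.1% over genes of similar level. Eif4e1b, an oocyte form of the cap-binding protein, had no read in any library (3 reads would be 0.2 to 0.256 FPKM), and Eif4ebp3 was at 3.22 FPKM in control 2, at 2.96 in Fth1-deleted 1 and at 0 in the other libraries.

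Summed over all 55 genes, the level was 9867, 8548 and 10144 FPKM in control and 10308, 9000, 9455 and 11152 FPKM in Fth1-deleted. This sum overlapped between the groups, at 9520 ± 853 (SD, n = 3) and 9979 ± 952 (SD, n = 4). Libraries within a group differed together. Control 2 held the lowest control value for 33 of 53 members (62.3%, against 31.3% of all genes tested), and Fth1-deleted 2 held the lowest Fth1-deleted value for 25 (47.2%, against 25.6%). Fth1-deleted 4 held the highest value of its group for 27 members (50.9%, against 21.4%), and control 3 held the highest control value for 30 (56.6%, against 30.7%). Control 2 was not low by every measure: the median of the members' log2(FPKM + 1) was 6.55 there, against 6.43 in control 1 and 6.42 in control 3. The SD within each genotype was thus larger than the difference between the 2 means of the sum.

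Of the 53 genes, 7 did not overlap between the groups, 3 higher and 4 lower in Fth1-deleted (13.2%). Over all genes tested 9.65% did not overlap, 4.1% higher and 5.55% lower. Among the 3237 genes between the members' quartiles of level 345 did not overlap, 204 higher and 141 lower. The higher members were Eif2s1, Eif4g3 and Eif3a, and the lower members Eif2b2, Eif2ak2, Eif3j1 and Eif4a2. None of the 7 passed the threshold.

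**Figure D2:**
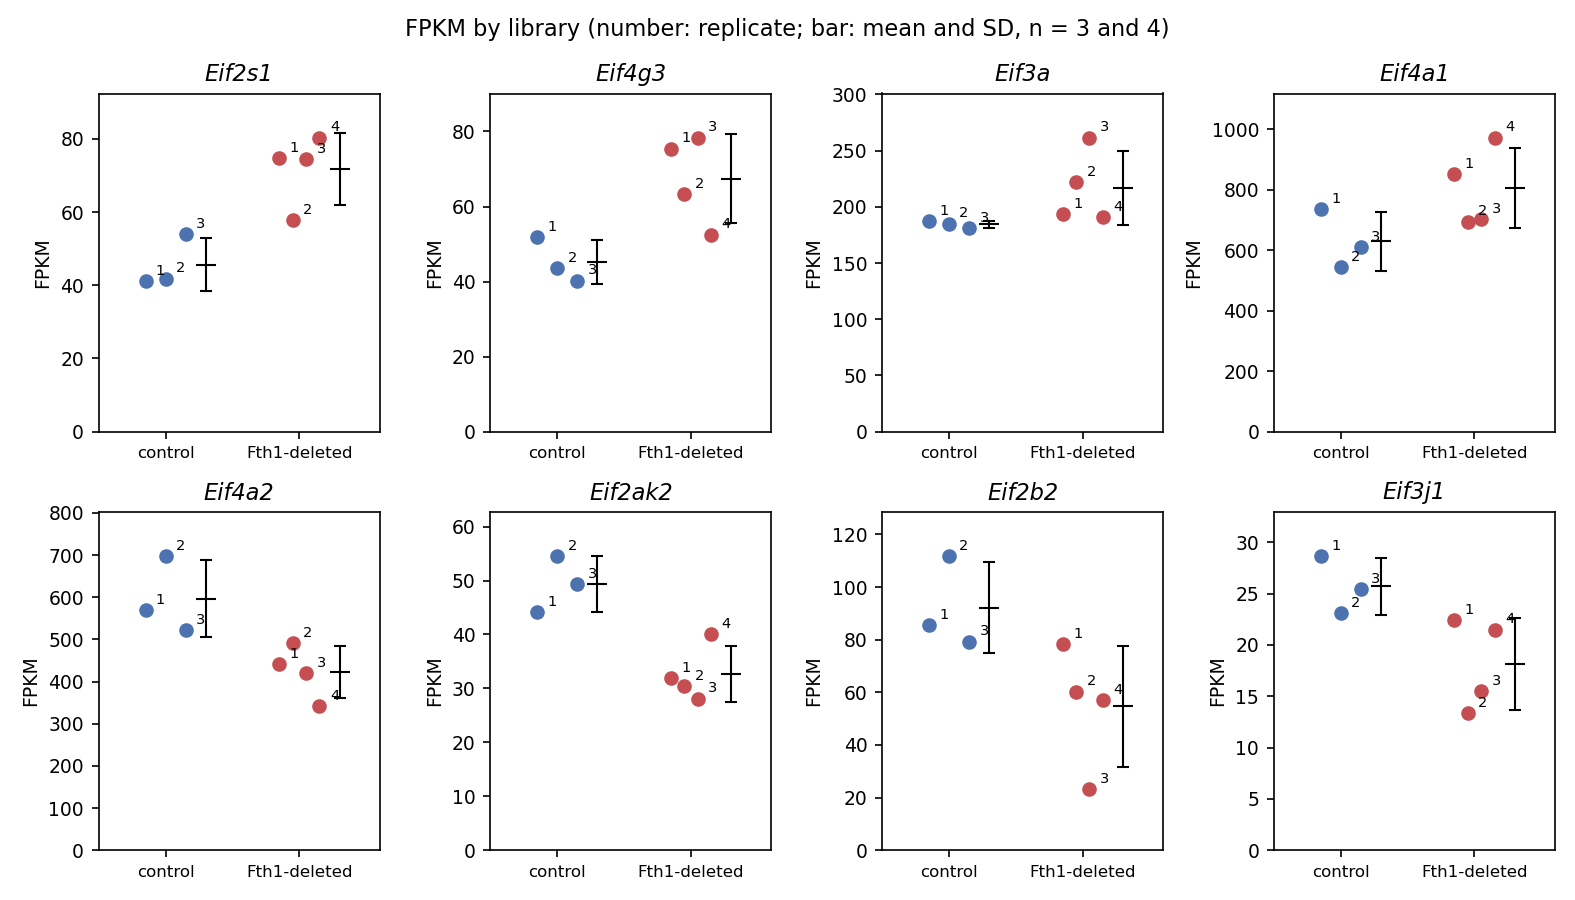
FPKM of 8 initiation factor genes in each library (points, with the replicate number; bars give the mean and SD of 3 control and 4 Fth1-deleted libraries). In 7 panels the groups do not overlap; in the Eif4a1 panel control 1, at 736 FPKM, lies above Fth1-deleted 2 and 3.

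Among the eIF4 genes, the helicase pair Eif4a1 and Eif4a2 had opposite differences. Both encode the RNA helicase that unwinds mRNA leaders. Eif4a2 (ENSMUSG00000022884, chromosome 16, 23107444 to 23114136) was at 569, 698 and 521 FPKM in control and at 441, 491, 421 and 342 FPKM in Fth1-deleted. Each Fth1-deleted library was below each control library, with a log2 difference of -0.49 (SE 0.18, 95% interval -0.88 to -0.11, adjusted p = 0.410). Eif4a1 (ENSMUSG00000059796, chromosome 11, 69666936 to 69672423) was at 736, 544 and 609 FPKM in control and at 850, 694, 703 and 972 FPKM in Fth1-deleted. Here the groups overlapped, with a log2 difference of 0.35 (SE 0.18, 95% interval -0.04 to 0.74, adjusted p = 0.556). With the share of ribosomal RNA as a covariate the 2 log2 differences were -0.82 for Eif4a2 and 0.66 for Eif4a1. That share was 1.19% to 1.36% in Fth1-deleted, and only control 2 (1.05%) came near it among the control libraries. Fits with this covariate, here and below, therefore rest mostly on control 2.

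The sum of the pair was almost the same in both groups while its makeup differed. Eif4a1 and Eif4a2 together were at 1226 ± 88.4 FPKM in control (SD, n = 3) and 1228 ± 89.5 FPKM in Fth1-deleted (SD, n = 4). Eif4a2 made up 43.6%, 56.2% and 46.1% of that sum in control and 34.1%, 41.4%, 37.4% and 26.04% in Fth1-deleted. The ranges do not overlap, and the mean shares were 48.7% ± 6.66 and 34.8% ± 6.53. The share was looked at as a description and has no test. A processed pseudogene, Eif4a-ps4, is 99.9% identical to Eif4a1 over 1218 bases and was listed at a mean of 95.6 FPKM, so the level of Eif4a1 is uncertain. With the pseudogene's FPKM added to that of Eif4a1, the Eif4a2 share was 45.4% ± 6.17 and 32.1% ± 6.26. Eif4a2 also has a near copy, Gm2999 (99.3% identical over 307 bases, mean 20.5 FPKM), and shares 194 exonic bases with Rfc4 on the opposite strand (mean 28.2 FPKM). Whether reads were counted by strand is not given in the sources used here. The summed stem cell, S phase, multipotent progenitor, macrophage, and mast cell and basophil levels did not overlap between the groups either. Their part in the share of Eif4a2 was not tested.

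**Figure D3:**
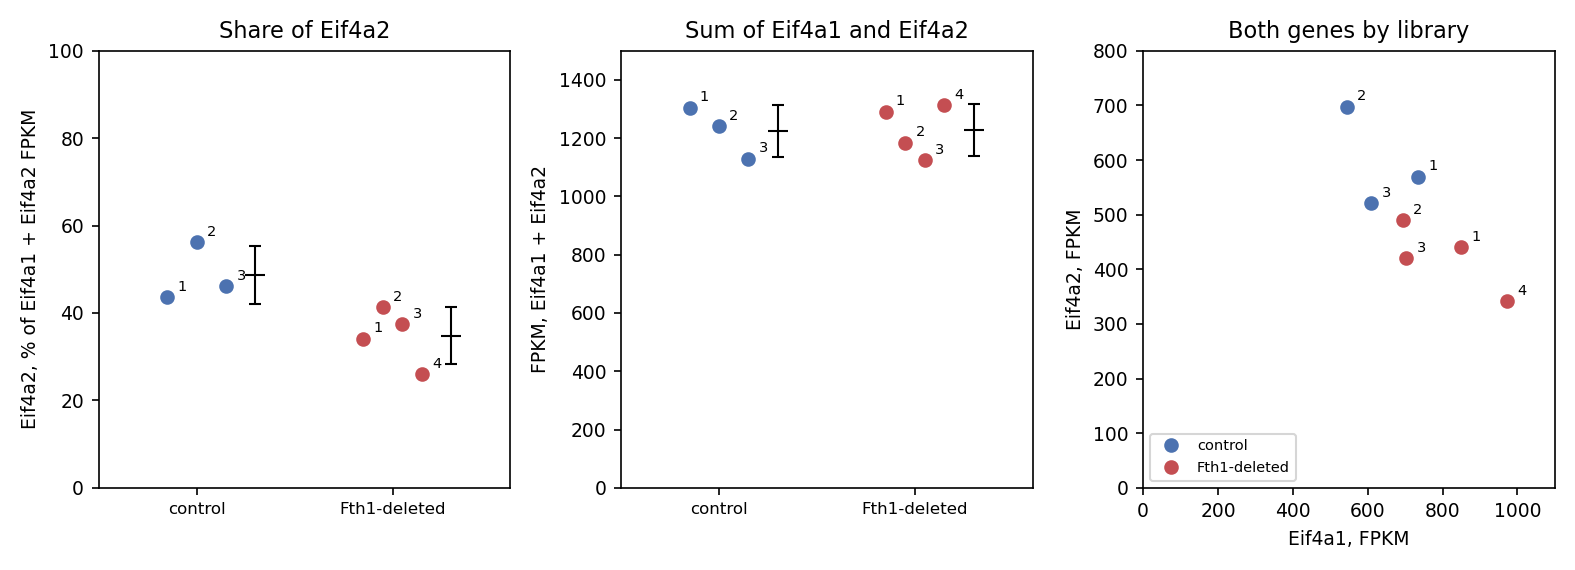
Left, Eif4a2 as a percentage of the summed FPKM of Eif4a1 and Eif4a2 by library; middle, that sum; right, both genes plotted against each other (points are libraries with replicate numbers, bars the mean and SD). The share is 26.04% to 41.4% in Fth1-deleted and 43.6% to 56.2% in control, while the sums overlap.

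The start regions of the pair are shown because these closely related genes had differences of opposite sign. Each window runs from 250 bases before to 50 bases after the RefSeq start (GRCm38.p6), written in the direction of the gene, with the E-box letters CACGTG in capitals where present. Eif4a1 lies at chr11:69672374-69672673 on the minus strand and Eif4a2 at chr16:23107218-23107517 on the plus strand.
Eif4a1: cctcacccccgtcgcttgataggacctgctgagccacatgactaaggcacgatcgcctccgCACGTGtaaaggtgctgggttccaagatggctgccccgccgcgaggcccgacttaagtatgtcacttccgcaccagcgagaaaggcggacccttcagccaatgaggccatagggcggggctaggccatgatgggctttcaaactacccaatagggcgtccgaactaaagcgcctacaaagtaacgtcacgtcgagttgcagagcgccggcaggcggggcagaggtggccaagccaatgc
Eif4a2: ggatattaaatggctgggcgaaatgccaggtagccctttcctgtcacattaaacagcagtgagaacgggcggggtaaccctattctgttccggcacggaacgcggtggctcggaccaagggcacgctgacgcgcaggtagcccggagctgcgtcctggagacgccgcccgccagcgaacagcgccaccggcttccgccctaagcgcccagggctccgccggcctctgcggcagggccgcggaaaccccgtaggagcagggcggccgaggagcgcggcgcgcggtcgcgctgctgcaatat
The Eif4a1 window holds 1 CACGTG, 189 bases before the start, and the Eif4a2 window holds none. GC content was 60.7% and 67.7%. These are letters in a window, and no binding was measured.

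The scaffold and cap-binding genes follow. Eif4g3, a scaffold that bridges cap and ribosome, was at 51.8, 43.6 and 40.3 FPKM in control and at 75.4, 63.3, 78.4 and 52.5 in Fth1-deleted. All Fth1-deleted values were above control, though Fth1-deleted 4 exceeded control 1 by little (log2 difference 0.56, SE 0.23, adjusted p = 0.467). Eif4g1, the main scaffold, was at 326 ± 41.4 and 324 ± 18.8 FPKM, with a log2 difference of -0.0023 (SE 0.16) and an interval of -0.34 to 0.34. Eif4g2, a relative that lacks the eIF4E binding site, was at 795 ± 111 and 755 ± 44.0 FPKM. It made up 70.7% ± 5.31 and 69.9% ± 1.65 of the sum of both. Eif4b and Eif4h, which stimulate the helicase, were at 603 ± 112 and 514 ± 51.4, and at 281 ± 40.1 and 321 ± 30.6 FPKM. Eif4a3, a helicase of the exon junction complex that shares the Eif4a name, was at 178 ± 62.5 and 224 ± 52.8 FPKM. The 12 eIF4 genes summed to 3584 ± 189 and 3590 ± 173 FPKM.

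Eif4e, the cap-binding protein itself, was at 82.5, 92.7 and 55.9 FPKM in control and at 103, 74.9, 111 and 108 FPKM in Fth1-deleted. Only Fth1-deleted 2 fell within the control range (log2 difference 0.38, SE 0.24, interval -0.13 to 0.89, adjusted p = 0.635), and with the share of ribosomal RNA as a covariate the log2 difference was 0.0016. Its relatives Eif4e2 and Eif4e3 were at 40.2 ± 9.17 and 48.2 ± 10.1, and at 13.9 ± 2.87 and 9.42 ± 3.04 FPKM.

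RNA of the proteins that hold eIF4E back overlapped between the groups. Eif4ebp1, which releases eIF4E when mTOR phosphorylates it, was at 61.5, 40.6 and 84.9 FPKM in control and at 54.9, 35.1, 53.2 and 100.2 in Fth1-deleted, so the Fth1-deleted libraries spanned the control range on both sides (log2 difference -0.07, SE 0.35, adjusted p = 0.958). Eif4ebp2 was more abundant and steadier, at 101 ± 14.0 and 115 ± 10.8 FPKM (log2 difference 0.19, SE 0.19, adjusted p = 0.760). Eif4ebp2 made up 62.4% ± 10.7 and 66.3% ± 11.8 of the summed FPKM of both. Eif4enif1, which carries eIF4E into the nucleus, was at 60.07 ± 1.94 and 59.8 ± 6.33 FPKM.

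Among the eIF2 subunits, the groups of Eif2s1 did not overlap. It encodes the alpha subunit, whose phosphorylation slows initiation. Eif2s1 (ENSMUSG00000021116, chromosome 12, 78861819 to 78887010) was at 41.2, 41.8 and 54.0 FPKM in control and at 74.8, 57.8, 74.5 and 80.4 FPKM in Fth1-deleted. The lowest Fth1-deleted library lay just above the highest control library. The ratio of means was 1.57, and the log2 difference of 0.64 (SE 0.22, interval 0.16 to 1.13) did not pass the threshold (adjusted p = 0.392). Eif2s2, the beta subunit, was at 33.8 ± 11.4 and 39.3 ± 3.25 FPKM, with control 2 lowest at 21.5; its processed pseudogene Gm9892 is 99.5% identical over 992 bases and was listed at 13.1 FPKM.

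The gamma subunit is encoded by Eif2s3x on the X chromosome and Eif2s3y on the Y chromosome. Eif2s3y had 670 reads in control 2, 377, 380 and 641 reads in Fth1-deleted 1, 2 and 3, and 0 reads in control 1, control 3 and Fth1-deleted 4. A level of 0 reads allows up to 3 reads, or 0.159 to 0.196 FPKM. In FPKM it was at 35.01, 19.2, 21.9 and 39.3 in the libraries with reads. The Y-linked genes Ddx3y, Kdm5d and Uty had reads in the same 4 libraries, and Xist, which silences an X chromosome, was at 42.5 to 142 FPKM in the 3 libraries without them and at 0 to 2.25 FPKM in the others. So 1 of 3 control and 3 of 4 Fth1-deleted libraries carried Y-linked RNA, and the log2 difference of Eif2s3y between genotypes, 1.82 (SE 1.39, adjusted p = 0.698), was measured over that uneven split; with a term for Y-linked reads it was -0.23.

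Eif2s3x followed the same split in the other direction. It was at 175, 207 and 204 FPKM in the 3 libraries without Y-linked reads (control 1, control 3 and Fth1-deleted 4) and at 109, 130, 132 and 149 FPKM in the 4 libraries with them. The lowest of the first set was above the highest of the second, and the means differed 1.5-fold. Between genotypes Eif2s3x was at 164 ± 50.1 and 154 ± 34.6 FPKM (log2 difference -0.07, SE 0.25, adjusted p = 0.946). With a term for Y-linked reads in the fit its log2 difference was 0.22. Added together, the X and Y copies reached 175, 144 and 207 FPKM in control and 149, 154, 189 and 204 FPKM in Fth1-deleted. On that sum the libraries with and without Y-linked reads overlapped, since Fth1-deleted 3 was above control 1. Eif2s3x is known to escape X inactivation in mouse. Of 3 other X-linked genes known for escape and named after their values were seen, Kdm6a was at 22.8 to 46.3 FPKM without and 12.2 to 21.2 FPKM with Y-linked reads, whereas Ddx3x (221 to 315 and 170 to 243) and Kdm5c (42.4 to 57.4 and 34.4 to 47.7) overlapped. Eif1ax, the other X-linked member, overlapped as well, at 26.9 to 60.8 and 33.5 to 61.5 FPKM. A processed pseudogene, Gm2223, is 100% identical to Eif2s3x over 1350 bases and was listed at 2.83 to 18.98 FPKM; with it added, Eif2s3x was at 180.5, 226 and 212 FPKM without and at 114, 133, 137 and 156 FPKM with Y-linked reads.

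**Figure D4:**
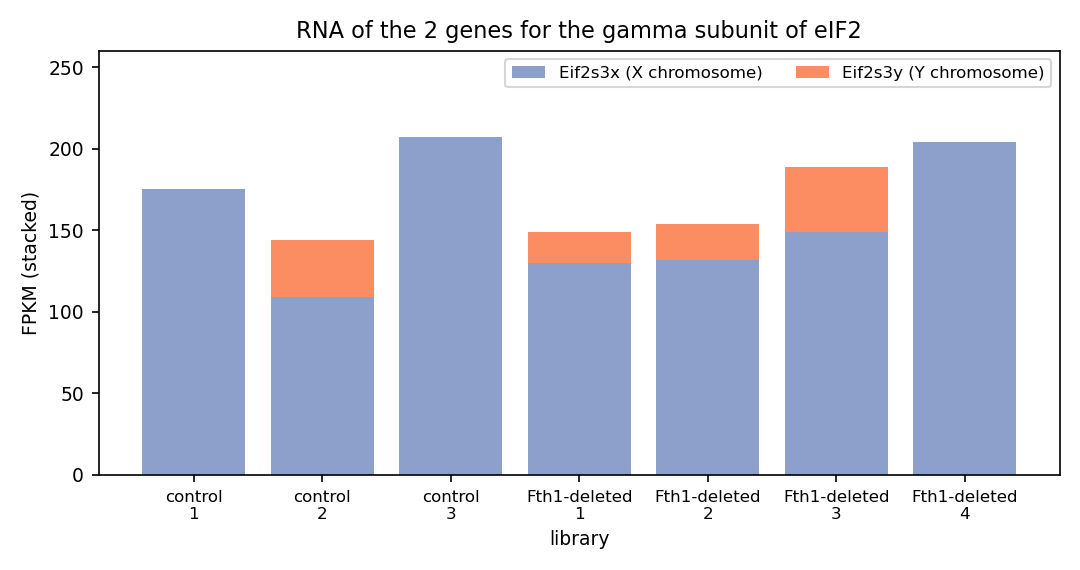
FPKM of Eif2s3x (lower bar) and Eif2s3y (upper bar, stacked) in each of the 7 libraries. Eif2s3y is present in control 2 and Fth1-deleted 1 to 3, and Eif2s3x is highest in the 3 libraries without it (175 to 207 FPKM).

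The start regions of this X and Y pair are shown to compare the copies whose levels followed the split in Y-linked reads. They lie at chrX:94212602-94212901 on the minus strand and chrY:1010345-1010644 on the plus strand (RefSeq, GRCm38.p6), again from 250 bases before to 50 bases after the start.
Eif2s3x: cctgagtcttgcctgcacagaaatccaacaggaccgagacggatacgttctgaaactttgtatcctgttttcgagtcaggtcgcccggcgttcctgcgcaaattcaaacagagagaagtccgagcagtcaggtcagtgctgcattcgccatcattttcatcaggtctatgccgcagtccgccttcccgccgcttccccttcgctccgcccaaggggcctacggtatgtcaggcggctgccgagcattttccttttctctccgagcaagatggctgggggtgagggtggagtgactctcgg
Eif2s3y: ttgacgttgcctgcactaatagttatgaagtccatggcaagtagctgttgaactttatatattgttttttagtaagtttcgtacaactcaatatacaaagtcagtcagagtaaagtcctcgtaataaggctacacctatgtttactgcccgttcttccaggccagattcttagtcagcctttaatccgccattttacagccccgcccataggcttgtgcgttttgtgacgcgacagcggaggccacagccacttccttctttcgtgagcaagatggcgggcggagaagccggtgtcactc
Neither holds CACGTG. The X copy has 21 CG pairs and 57% GC in this window, the Y copy 14 CG pairs and 46.7% GC.

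The 5 eIF2B genes encode the exchange factor that recharges eIF2 with GTP, and they did not move together. Eif2b2, the beta subunit, was at 85.5, 112 and 79.2 FPKM in control and at 78.2, 60.2, 23.2 and 57.2 in Fth1-deleted. The groups nearly touch, at 79.2 and 78.2 FPKM, and Fth1-deleted 3 was far below the rest (log2 difference -0.85, SE 0.35, adjusted p = 0.467). Without Fth1-deleted 3 the log2 difference was -0.49. Eif2b4 and Eif2b1 differed the other way, at 45.2 ± 19.8 and 67.8 ± 12.7, and at 44.9 ± 24.1 and 65.6 ± 22.7 FPKM, with overlapping groups; Eif2b4 shares 204 exonic bases with Snx17 on the opposite strand (mean 100.2 FPKM). Eif2b5, the catalytic subunit, was at 59.4 ± 12.9 and 64.3 ± 5.995 FPKM, and Eif2b3 at 14.3 ± 4.74 and 14.2 ± 5.22 FPKM. The sum of the 5 genes was 256 ± 30.9 and 267 ± 31.0 FPKM.

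Of the 4 eIF2 kinases, Eif2ak2 was lower in Fth1-deleted. It encodes PKR, which senses double-stranded RNA. Eif2ak2 (ENSMUSG00000024079, chromosome 17, 78852564 to 78882573) was at 44.1, 54.5 and 49.3 FPKM in control and at 31.9, 30.5, 28.1 and 40.1 FPKM in Fth1-deleted. Every Fth1-deleted library was below every control library, at 66.2% of the control mean (log2 difference -0.59, SE 0.24, interval -1.12 to -0.06, adjusted p = 0.466).

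Eif2ak1 encodes HRI, the kinase that is active when heme is short. Its RNA was at 23.7, 25.5 and 20.5 FPKM in control and at 28.5, 27.4, 24.4 and 18.9 in Fth1-deleted, with a log2 difference of 0.08 (SE 0.29, interval -0.55 to 0.71, adjusted p = 0.944). The groups overlapped. In the same libraries Hmox1, the enzyme that breaks down heme, was at 22.1 ± 4.58 and 102 ± 30.3 FPKM and passed the threshold (adjusted p = 0.0213). RNA levels say nothing of the activity of HRI, and 487 exonic bases of Eif2ak1 are shared with Aimp2 on the opposite strand (mean 24.0 FPKM).

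Eif2ak4, the kinase GCN2 of amino acid shortage, was at 15.2 ± 2.95 and 15.5 ± 4.00 FPKM (log2 difference 0.0076, SE 0.36). Eif2ak3, the kinase PERK of the endoplasmic reticulum, was the least even of the 4. It had 0, 520 and 632 reads in control and 357, 61, 311 and 681 reads in Fth1-deleted, that is 0, 18.2 and 27.7 and then 12.2, 2.36, 12.8 and 24.3 FPKM. Control 1 had no read although the other control libraries had at least 520, and the log2 difference of 0.44 (SE 1.03, adjusted p = 0.907) became -1.07 without control 1. It also moved with the pseudocount, from 0.04 at 5 FPKM to 1.41 at 0.1 FPKM. Among the 8725 genes with a mean of at least 10 FPKM, 2.29% were at 0 in some library and 0.894% in control 1.

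Targets of ATF4, the transcription factor whose translation rises when eIF2 is phosphorylated, were described as a list. Of 18 genes tested 0 passed the threshold in limma and 5 (27.8%, against 9.83% of all genes tested) had an unadjusted p under 0.05, 2 higher and 3 lower. Their median log2 difference was 0.23, and 13 (72.2%, against 48.7% of all genes tested) were positive. Those with the smallest p were Mthfd2, a mitochondrial folate enzyme, at 14.5 ± 9.95 and 45.2 ± 17.9 FPKM (log2 difference 1.76, adjusted p = 0.345), and Nars, the asparaginyl tRNA synthetase, at 137 ± 15.6 and 94.4 ± 10.3 FPKM (log2 difference -0.54, adjusted p = 0.390). The groups of Mthfd2 overlapped. The others at an unadjusted p under 0.05 were Trib3 (log2 difference -1.54), Asns (-1.01) and Aars (0.54). Chac1 had no read in any library.

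None of the 14 genes of eIF3 had an unadjusted p under 0.05. Their sum was 2941, 2253 and 2906 FPKM in control and 3042, 2381, 2732 and 3150 in Fth1-deleted, and their median log2 difference was 0.05. Both libraries at the low end, control 2 and Fth1-deleted 2, were low across the complex: control 2 held the lowest control value for 12 of 14 subunits and Fth1-deleted 2 the lowest of its group for 10. By level, Eif3f (429 FPKM over the 7 libraries), Eif3h (424) and Eif3b (329) led, followed by Eif3k, Eif3i, Eif3c, Eif3g and Eif3a between 231 and 203. Next came Eif3l (160), Eif3m (117), Eif3e (111) and Eif3d (108). Most neighbours in this order overlapped over the 7 libraries. The ones that did not were Eif3b and Eif3k (lowest Eif3b 273, highest Eif3k 254), Eif3d and Eif3j1, and Eif3j1 and Eif3j2, so only these steps exceed the spread between libraries.

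**Figure D5:**
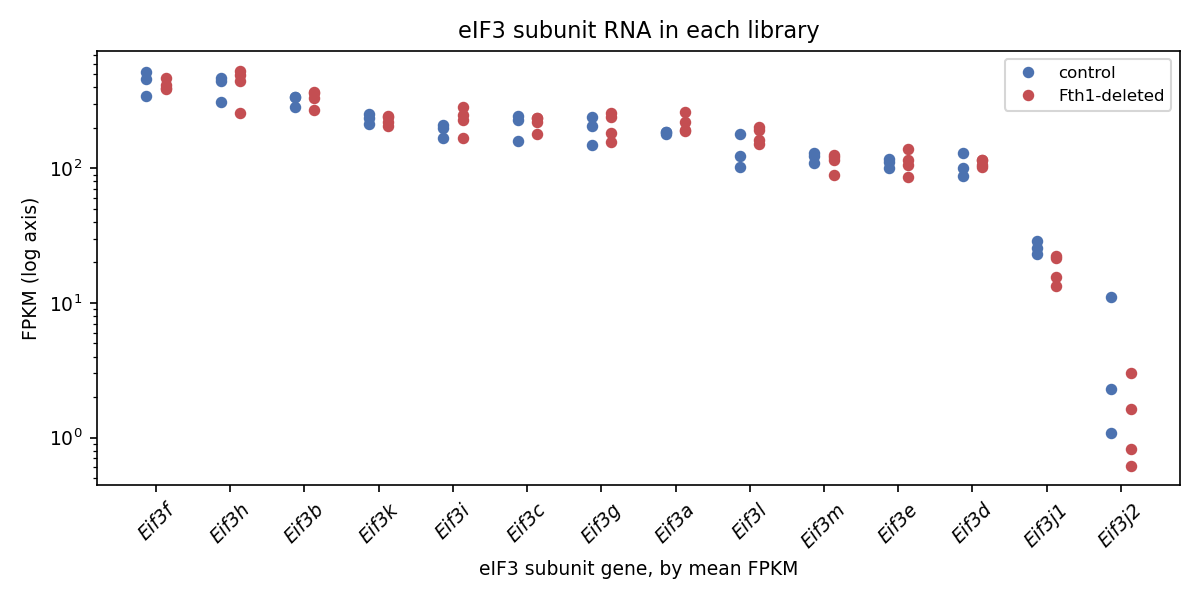
FPKM of the 14 eIF3 subunit genes in each of the 3 control and 4 Fth1-deleted libraries (points), on a log axis, ordered by mean level. From Eif3f to Eif3d the means lie between 429 and 108 FPKM with mixed groups, and Eif3j1 and Eif3j2 lie far lower, at 21.4 and 2.94 FPKM.

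Single subunits ranged more widely than the sum: Eif3l was at 136 ± 40.4 and 177 ± 23.4 FPKM, and Eif3j2 at 4.84 ± 5.47 and 1.52 ± 1.09 FPKM, with control 3 alone at 11.1. Eif3a and Eif3j1 were the subunits whose groups did not overlap. Eif3a, the large backbone subunit, was at 187, 185 and 181 FPKM in control and at 194, 222, 262 and 191 FPKM in Fth1-deleted. Fth1-deleted 1 and 4 lay only just above control (log2 difference 0.22, SE 0.17, adjusted p = 0.703). Eif3j1, the loosely bound j subunit that sits near the mRNA channel, was at 28.7, 23.1 and 25.4 FPKM in control and at 22.4, 13.3, 15.5 and 21.5 in Fth1-deleted (log2 difference -0.50, SE 0.31, adjusted p = 0.636; -0.23 with the ribosomal RNA covariate). The value of Eif3j1 is uncertain, since Eif3j2 is 99.4% identical to it over 2379 bases and 1107 exonic bases are shared with Spg11 on the opposite strand. The sum of Eif3j1 and Eif3j2 was 31.0, 24.2 and 36.5 FPKM in control and 24.1, 13.9, 18.5 and 22.3 in Fth1-deleted, so control 2 still lay above all Fth1-deleted libraries, by a small margin.

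The 10 genes of start site selection, subunit joining and related steps had a median log2 difference of 0.01, none at an unadjusted p under 0.05 and none without overlap. Eif1, which guards against initiation at wrong codons, was at 612 ± 55.4 and 631 ± 21.02 FPKM, and its paralog Eif1b at 85.9, 149 and 134 FPKM in control and 82.6, 101, 99.3 and 95.4 in Fth1-deleted. Eif1b made up 16.7% ± 3.92 and 13.02% ± 1.01 of their sum. The level of Eif1 is uncertain, since it has several near copies. It is 96.7% identical to Emd over 662 bases (mean 84.6 FPKM). Its processed pseudogenes Gm10157 and Gm6900 were listed at 12.4 and 11.7 FPKM. Eif5, which triggers GTP hydrolysis on eIF2, was at 174 ± 12.6 and 171 ± 23.5 FPKM, and Eif5b, which joins the large subunit, at 36.7 ± 7.12 and 36.02 ± 5.03, with 1643 exonic bases shared with Rev1 on the opposite strand. The other genes of this group were less abundant: Eif1a, Eif1ax, Eif1ad, Eif2a and Eif2d, which act in start codon choice or in alternative delivery of the initiator tRNA or are related by name, had means of 32.1 to 53.1 FPKM over the 7 libraries. Eif6, which keeps free large subunits from joining too early, was at 160 ± 17.3 and 158 ± 21.8 FPKM, with a log2 difference of -0.02 (SE 0.18, interval -0.42 to 0.38).

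Eif5a, which carries the hypusine modification and helps the ribosome past difficult peptide bonds, was at 1266, 902 and 1104 FPKM in control and at 1448, 1074, 1156 and 1771 FPKM in Fth1-deleted. Fth1-deleted 2 and 3 lay within the control range (log2 difference 0.31, SE 0.20, interval -0.13 to 0.74, adjusted p = 0.652; 0.71 with the ribosomal RNA covariate). Its paralog Eif5a2 was at 0 to 3.33 FPKM, or 0.160% ± 0.151 and 0.0851% ± 0.0481 of the sum of both.

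Genes that act beside the initiation factors but carry other symbols are given by list, to be read against all genes tested, of which 9.83% had an unadjusted p under 0.05 and 48.7% a positive difference. Of 25 initiation regulators tested 0 passed the threshold in limma, 2 (8%) had an unadjusted p under 0.05 and 16 (64%) were positive, with a median log2 difference of 0.05. Those with the smallest p were Ddx3x, an RNA helicase on the X chromosome, at 278 ± 36.0 and 197 ± 20.9 FPKM (log2 difference -0.50, adjusted p = 0.390), and Mknk1, a kinase of eIF4E, at 39.9 ± 11.4 and 69.5 ± 25.7 FPKM (0.76, adjusted p = 0.444). Ddx3x was at a mean of 271 FPKM in libraries without Y-linked reads and 202 FPKM in those with them. The part of that uneven split in its difference was not tested. Of 16 elongation and termination genes 0 passed in limma, 2 (12.5%) had an unadjusted p under 0.05 and 9 were positive, with a median of 0.03, and the smallest p belonged to Gspt1, a release factor (85.5 ± 10.7 and 116 ± 6.82 FPKM, log2 difference 0.44, adjusted p = 0.474), and Hbs1l, which rescues stalled ribosomes (38.06 ± 13.3 and 56.5 ± 7.45 FPKM, 0.61, adjusted p = 0.501). Among 24 ribosome biogenesis genes 22 differences (91.7%) were positive, the median was 0.34, 3 (12.5%) had an unadjusted p under 0.05 and 0 passed in limma. Nop58 and Tcof1, which act in the nucleolus, had the smallest p (0.62 and 0.59 on the log2 scale, adjusted p = 0.289 and 0.390). The S phase list had a median of 0.45 over 15 genes, all positive, with 6 (40%) at an unadjusted p under 0.05, led by Rrm2 (61.1 ± 9.92 and 131 ± 15.1 FPKM, 1.09, adjusted p = 0.0918) and Cdc45 (1.16, adjusted p = 0.383). The G2 and M phase list counted 16 genes, with 15 positive differences, a median of 0.58 and 4 (25%) at an unadjusted p under 0.05, led by Plk1 (1.43, adjusted p = 0.339) and Aurkb (0.71, adjusted p = 0.426), and limma called 0 in both lists. No test compared these lists with the initiation factors.

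A feature that the choice of members did not use is the E-box CACGTG, the letters bound by MYC and related factors, which reads the same on both strands. RefSeq start regions were found for 43 of the 55 members. CACGTG stood in at least 1 window of 10 of them (23.3%), against 11.8% of 9563 tested genes with a window and 8.09% of all 27025 genes in the RefSeq table. The 10 genes were Eif1b, Eif3a, Eif3f, Eif3k, Eif4a1, Eif4e, Eif4g1, Eif4h, Eif5a and Eif5a2. Some are shown with 10 bases on either side, with the E-box in capitals, to let the flanks be compared.
Eif1b, 24 bases before the start: tgcggacggtCACGTGgcggcggcgc
Eif3f, 68 bases before: agatatgattCACGTGgtataaattt
Eif3k, 44 bases before: ggaaggaaatCACGTGgtagacaaaa
Eif4e, 64 bases before: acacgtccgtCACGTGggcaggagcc
Eif4e, 228 bases before: cgccagcgacCACGTGatcacttttt
Eif4g1, 54 bases before: cagtgggtgtCACGTGatggggcgga
Eif4h, 96 bases before: gccgccgcacCACGTGggccgcagag
The members with and without CACGTG had median log2 differences of 0.10 and 0.08, and 1 of 10 and 6 of 33 did not overlap between genotypes. Their median levels were 267 and 59.9 FPKM. The shares given for other genes were not matched to the members by level. TGACGTCA, the letters bound by CREB and related factors on either strand, was in 0 of the 43 members' windows and in 3.54% of tested genes. CTTTCC, searched on the gene's strand within 20 bases of the start, was in 1 of 43 (2.33%) and in 2.32% of tested genes. A match is a run of letters, not a site of binding.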

How the data were processed

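PolyA RNA of bone marrow HSCs was sequenced in 3 control and 4 Fth1-deleted libraries. Per the submitters' processing notes, paired-end reads were aligned to GRCm38 (HISAT2 2.0.4) and counted per gene (HTSeq 0.9.1), and the authors derived the deposited FPKM from those counts and gene length; the Cre line, annotation release, strand setting and filters are not given in the sources used here. Of 55855 rows, 55480 were matched to GENCODE mouse release 21 (GRCm38), which gave symbols, positions and lengths; promoter windows are from RefSeq (GRCm38.p6). Counted reads were recovered because FPKM times mean transcript length falls on multiples of a fixed step; 98.8% to 99.4% of values under 50 reads were whole within 0.05 reads. Such reads are not independent molecules, so floors of 3 reads cover counting error only.

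The 13948 genes with a mean of at least 1 FPKM were fitted as log2(FPKM + 1) by a two-sided limma-trend fit without covariates (limma 3.58.1, R 4.3.3), which was first checked on simulated data. P-values were adjusted by Benjamini-Hochberg over all of them, with a threshold of 0.05. This scale understates differences of weakly expressed genes. Members given a log2 difference are those past the threshold, up to 8 per direction with a mean of at least 5 FPKM and no overlap, and 14 chosen by role. Members, lists and tests were chosen with earlier results of these data known. A gene of the stem cell list that passed the threshold is not reported here by name. Copies were searched with BLAST 2.17.0, at 95% identity over at least 200 bases: 23 members share such a stretch with another gene. The alternatives are other pseudocounts, filters, scalings, weights, covariates, a replicate block, voom on the recovered reads and each library left out.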

Additional observations from a re-analysis of the deposited data

Results flagged for a closer look

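Each of the 53 tested genes was examined for a library standing apart among the 4 Fth1-deleted libraries; chance alone gives about 1 in 20, and 2 were found. Eif2b1, a subunit of eIF2B, was at 99.3 FPKM in Fth1-deleted 4, while the other 3 lay between 50.8 and 58.0 FPKM. Eif5, the GTPase activator of eIF2, was at 136 FPKM in Fth1-deleted 2 and at 179 to 186 FPKM in the other 3.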

How the results depend on the processing

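No initiation factor gene passed the threshold in any of 21 alternatives; the smallest adjusted p of a named member was 0.163. The number of members at an unadjusted p under 0.05, 5 in the report, was 2 without a trend in limma, 8 with the ribosomal RNA covariate, 9 with the term for Y-linked reads and 2 to 8 with 1 library left out (8 without control 1, 2 without control 2). The median log2 difference of the members was 0.06. It moved by more than 1 SD between libraries in 1 alternative, the ribosomal RNA covariate (0.27, with all genes at -0.06). With TPM it changed sign (-0.02, with all genes at -0.09). With 1 library left out it was -0.04 to 0.15. The number of genes called over the whole table, 8, was 0 without a filter and with the replicate block, 17 without a trend, 4 among protein-coding genes, 28 with the ribosomal RNA covariate, 17 with the Y-linked term, 5 with voom and 0 to 4 with 1 library left out (4 without control 2, 0 without any other). In the replicate block the unpaired Fth1-deleted 4 carries no information. That block left 5 members at an unadjusted p under 0.05 and a member median of 0.02. Same-numbered libraries did not deviate together (correlations of 0.01, 0.06 and -0.04). No pairing by number was seen, though so few libraries cannot exclude one.

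Of 19 named members, 11 kept their direction in all 21 alternatives: Eif2ak2, Eif2b2, Eif2s1, Eif3a, Eif3j1, Eif4a1, Eif4a2, Eif4e, Eif4ebp2, Eif4g3 and Eif5a. For 7 of these the groups do not overlap, which largely fixes the sign. Size was less steady: with the ribosomal RNA covariate Eif4e went from 0.38 to 0.0016, Eif3j1 from -0.50 to -0.23, Eif4a1 from 0.35 to 0.66, Eif4a2 from -0.49 to -0.82 and Eif5a from 0.31 to 0.71. The other 8 changed sign in some. With the ribosomal RNA covariate the log2 differences were -0.091 for Eif2ak1, -0.97 for Eif2ak3, 0.64 for Eif2s3x, -2.95 for Eif2s3y, 0.72 for Eif4ebp1, 0.12 for Eif4g1 and 0.27 for Eif6. With the Y-linked term they were -0.064 for Eif2ak1, -0.080 for Eif2ak4, 0.22 for Eif2s3x, -0.23 for Eif2s3y, 0.33 for Eif4ebp1, 0.045 for Eif4g1 and 0.090 for Eif6. With size factors they were 0.023 for Eif4g1 and 0.0040 for Eif6, with TPM -0.066 for Eif2ak4, and with library weights -0.019 for Eif2ak4 and 0.011 for Eif6. With 1 library left out the ranges were -0.0034 to 0.20 for Eif2ak1, -1.07 to 1.35 for Eif2ak3, -0.13 to 0.15 for Eif2ak4, -0.33 to 0.13 for Eif2s3x, 0.96 to 3.55 for Eif2s3y, -0.35 to 0.18 for Eif4ebp1, -0.055 to 0.10 for Eif4g1 and -0.11 to 0.053 for Eif6. The cause of these shifts was not tested. Depth was not varied; Eif3j2 had as few as 20 reads in a library, and Eif5a2 and Eif4ebp3 had none in some.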
